A study of Mus musculus with 16 samples.

Results

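The comparison described here is that of untreated Apc mutant with untreated wild type mouse intestinal organoids on day 2 of culture, measured by RNA sequencing. It rests on 4 of the 16 libraries of the series, chosen by their titles and labels: replicates 4 and 5 of each genotype, all labelled as having no treatment. The other 12 libraries, grown in conditioned medium, were not used as a baseline and entered only an alternative fit named in the closing section. Of 46078 genes in the count tables, 13908 had enough counts to be tested, and every statement below is about those unless another number is given.

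Organoids are closed structures of gut epithelium grown from crypts in a gel, and they hold stem, dividing and differentiated cells. Both groups came from C57BL6 mice, had the culture day label Day2 and, per the labels' protocols, were kept in Matrigel with EGF, R-spondin and Noggin, so the wild type cells too had a Wnt-enhancing factor in their medium. Wild type organoids carried Lgr5-EGFP-IRES-CreERT2, a reporter and tamoxifen-inducible Cre recombinase in the stem cell gene Lgr5, and a red fluorescent mCherry construct. Mutant organoids carried the same Cre allele with Apc fl/fl (Apc flanked by recombination sites), were recombined in culture with 4OH-tamoxifen and carried a green fluorescent Venus construct. The protocols also name Villin-CreERT2 Apc fl/fl mice without saying which libraries they gave. No label names the animal, line or culture of a library, so the p-values measure only the spread between these libraries, which may be technical. For the same reason the Apc genotype cannot be told apart from the line, the fluorescent construct or the recombination step.

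Gene counts came to 11597252 and 13027701 in the mutant and 10910106 and 8325979 in the wild type libraries. Levels are given as CPM, the count of a gene relative to the total of its library after scaling for composition, with replicate 4 before replicate 5. Reads outside annotated genes made up 7.32% and 6.86% of all reads in the mutant and 4.78% and 5.02% in the wild type libraries. Replicates differed by more than counting noise (chi-square per degree of freedom 6.03 and 5.08), so each was counted as a separate library. Genes named by histone cluster, most of whose mRNAs are made without polyadenylation, gave 50.5 to 53.2 CPM in sum. These values alone are relative to the gene counts without scaling for composition. The labels nevertheless name a ribosomal depletion kit for total RNA. The number of libraries limits the precision: 2 residual degrees of freedom were left, and the common biological coefficient of variation was 8.54%.

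Apc is a scaffold of the destruction complex, which marks beta-catenin for breakdown. Without it beta-catenin enters the nucleus and, with TCF and LEF factors, switches on Wnt target genes; several of these encode inhibitors that feed back on the pathway. In the intestine Wnt signalling keeps crypt base stem cells dividing, and cells that leave the crypt become absorptive enterocytes or secretory goblet, Paneth, enteroendocrine and tuft cells. Apc loss is the usual first step of intestinal adenomas.

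Most tested genes differed between the genotypes. At an adjusted p under 0.05 in edgeR's quasi-likelihood test, 4556 genes (32.8% of those tested) were higher and 4384 (31.5%) were lower in the mutant. Changes of at least 2-fold were called upward in 2373 genes (17.1%) and downward in 1882 (13.5%). At least 8-fold, 790 genes were higher and 721 lower. Of all tested genes, 11319 had libraries that did not overlap between the groups, and 27 called genes had libraries that did. The median log2 fold change of all tested genes was 0.0035, with quartiles of -0.51 and 0.60. Called genes were split 51.0% to 49.0% between higher and lower, but 64.2% to 35.8% when libraries were scaled by their totals alone, a scaling that moved the median of all genes up to 0.20. The gene lists below are therefore read against these shares, and a shift under about that size depends on the scaling. Of the tested genes, 1239 reached the filter on low counts only in the mutant libraries and 794 only in the wild type libraries. Such genes enter the test through the group where they are high, so where a list holds many of them their number is given and its count and median are a description only.

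**Figure D1:**
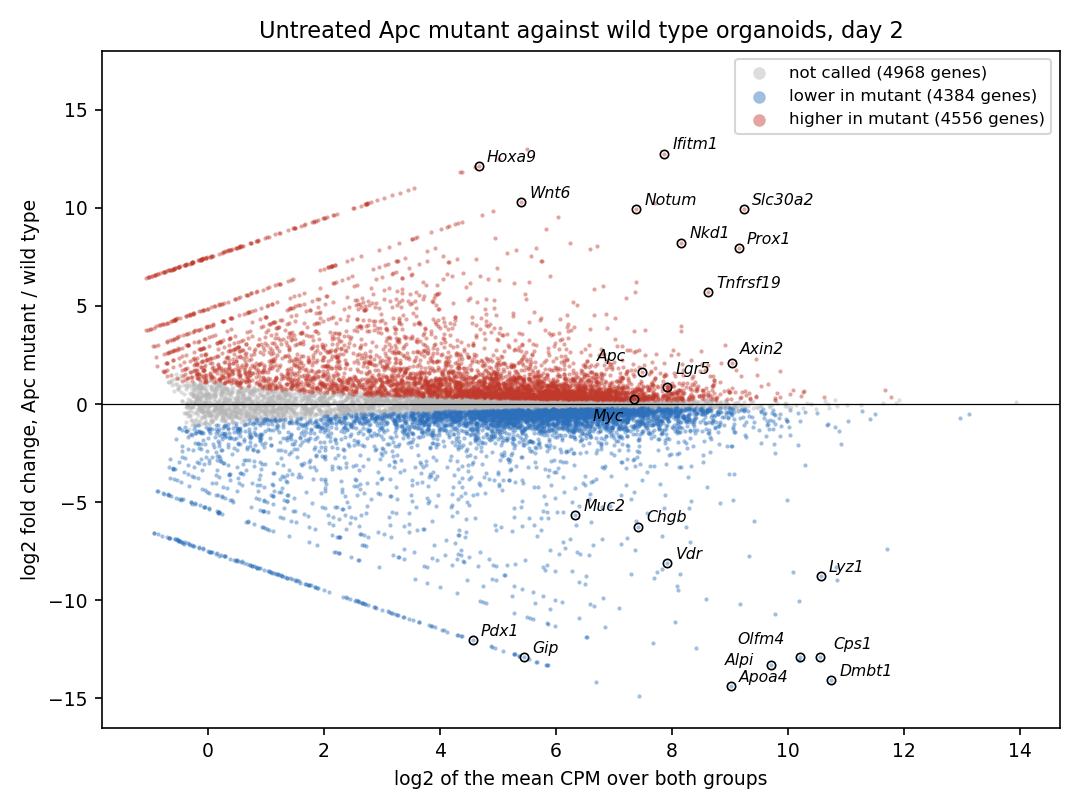
Each point is 1 of the 13908 tested genes, with the log2 of its mean CPM over both groups on the x axis and its fitted log2 fold change (mutant over wild type) on the y axis. Genes called higher are red (4556), genes called lower blue (4384) and the rest grey; the straight lines of points at the edges are genes with few or 0 counts in 1 group, whose fitted values depend on a prior count.

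**Figure D2:**
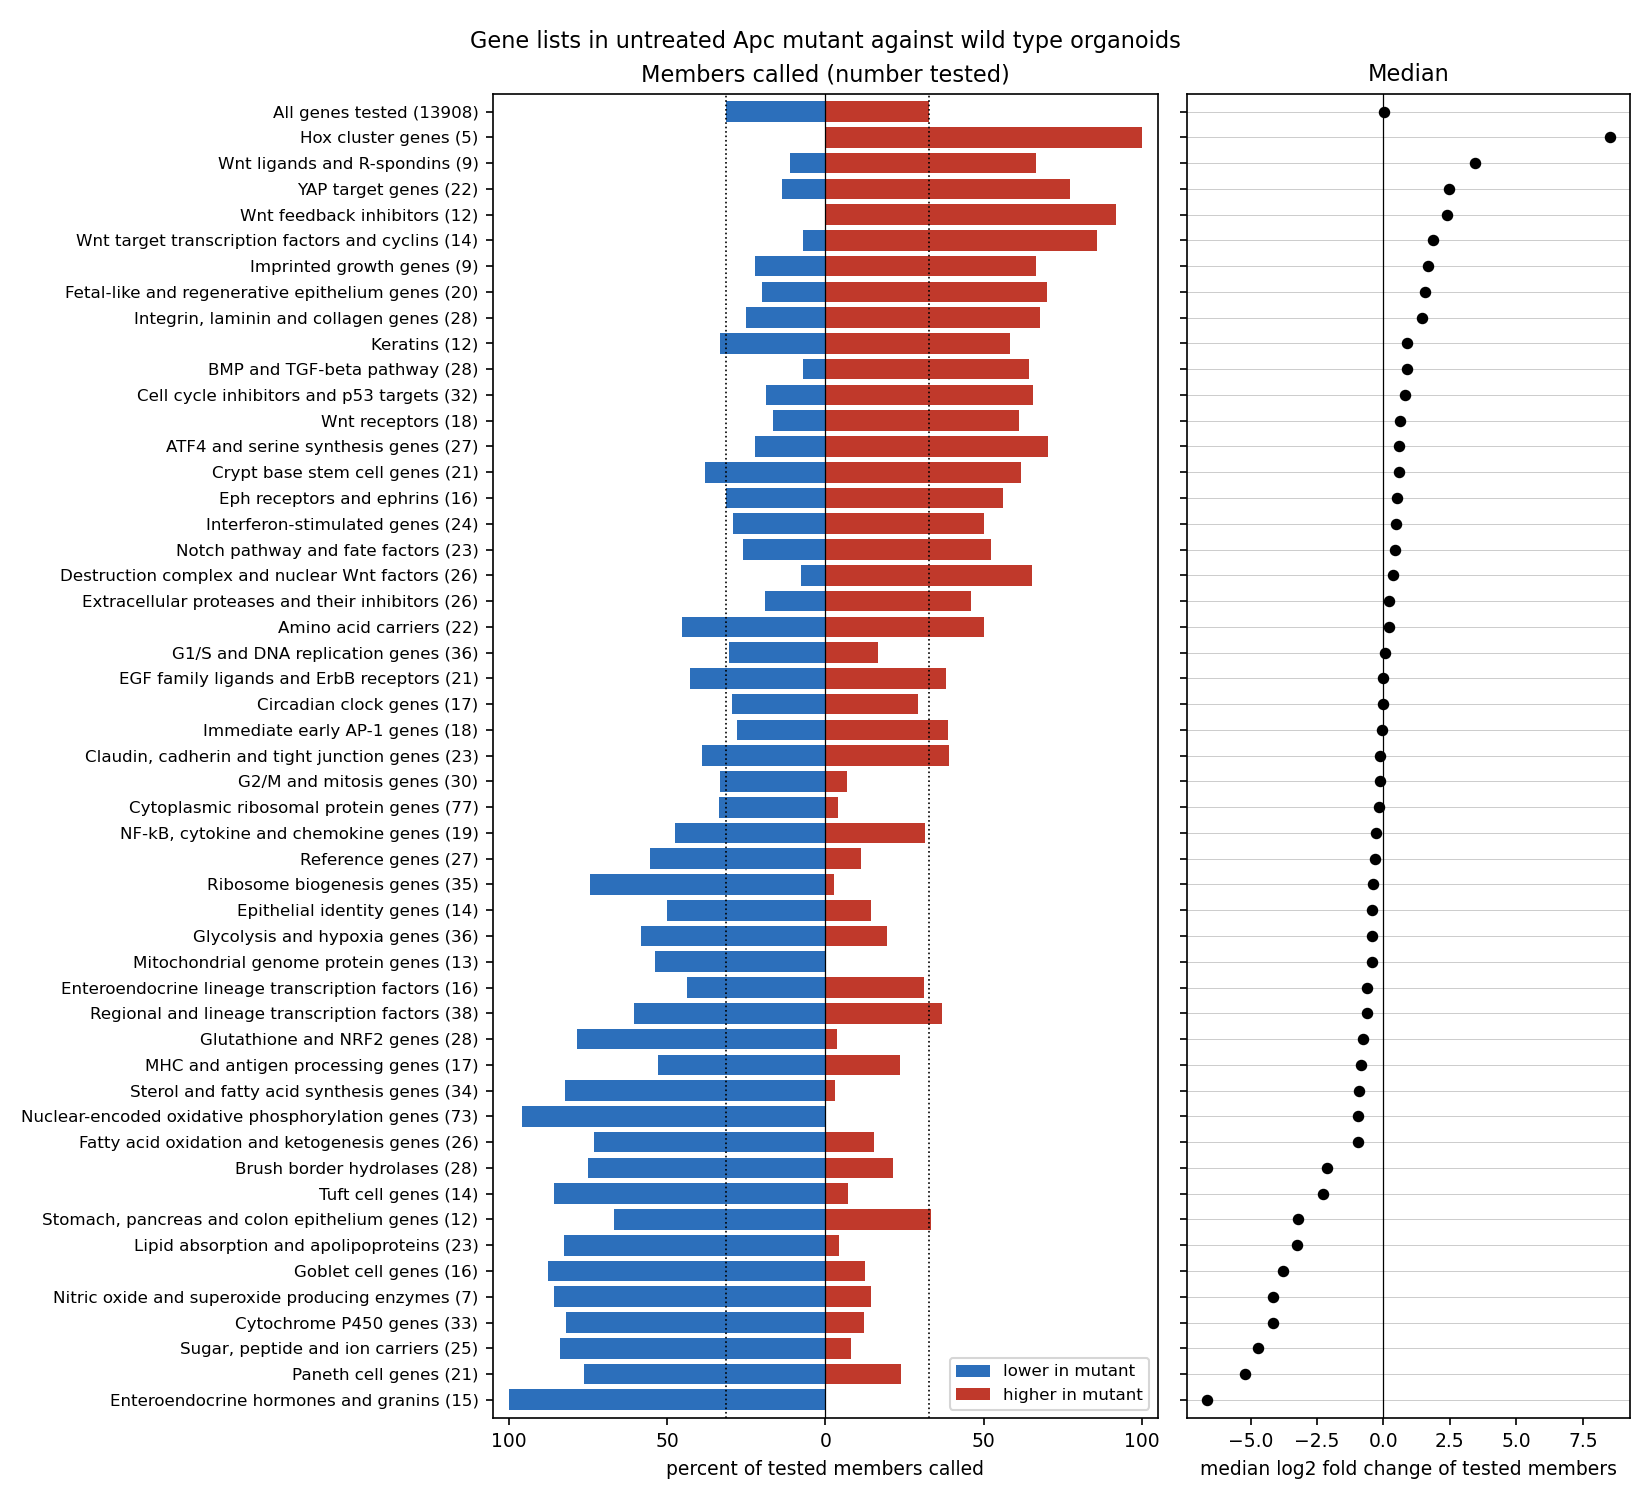
For each list with at least 5 tested members (number tested in brackets), the left panel shows the percent of tested members called higher (red, to the right) or lower (blue, to the left), and the right panel the median log2 fold change. Dotted lines mark the shares over all tested genes, 32.8% higher and 31.5% lower. Lists are ordered by their median: Hox genes (5 tested), Wnt ligands and YAP targets have the highest, and carriers, Paneth cell genes and hormones the lowest.

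Counts of Apc itself were obtained in all 4 libraries, with 289 and 256 CPM in the mutant and 83 and 90.2 CPM in the wild type libraries: higher in both mutant libraries (log2 fold change 1.66, SE 0.10). Counts over the whole gene, which lies on chromosome 18, do not separate the recombined part, so this value does not check the deletion.

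Wnt feedback inhibitors rose in nearly all tested members. Of 19 listed, 12 could be tested and 11 rose, with a median log2 fold change of 2.41; 4 of the 12 reached the filter only in the mutant. Axin2, a scaffold that helps break down beta-catenin and the standard readout of the pathway, stood at 780.0 and 914 CPM in the mutant and 209 and 184 CPM in the wild type libraries (log2 fold change 2.11, SE 0.10). Its level in wild type was well above 0, whereas several other inhibitors were nearly silent there. Notum, a secreted enzyme that removes the lipid from Wnt proteins, had 299 and 367 CPM against 0.392 and 0.258 CPM. Nkd1, an inhibitor acting on Dishevelled, had 511 and 627 CPM against 2.15 and 1.55 CPM. Both were nearly silent in wild type, with log2 fold changes of 9.92 and 8.22. Wif1, which binds Wnt proteins outside the cell, had 39.8 and 39.7 CPM against 0.0979 and 0 CPM, a ratio of 714 with an exact 95% interval of 128 to 28246 for counting error only. Apcdd1, a membrane-bound inhibitor, was at 99.4 and 115 CPM against 0.783 and 0.517 CPM. The ubiquitin ligases Rnf43 and Znrf3, which remove Frizzled receptors from the cell surface, were expressed in both genotypes, Rnf43 at 596 and 654 CPM against 95.3 and 96.1 CPM and Znrf3 at 121 and 115 CPM against 29.9 and 31.9 CPM. Shisa2 was the tested member that was not called, at 27.3 and 29.9 CPM against 32.7 and 27.3 CPM.

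Transcription factors and cyclins known as Wnt targets followed, with 12 of 14 tested members higher and 1 lower (18 listed, median 1.85). Of the 14, 2 reached the filter only in the mutant. Lef1, a nuclear partner of beta-catenin, had 27.5 and 29.9 CPM in the mutant and 0.0979 and 0 CPM in wild type, a ratio of 517 (exact 95% interval 92.4 to 20429.6). Prox1, a homeobox factor, stood at 1175 and 1087 CPM against 5.29 and 3.62 CPM (log2 fold change 7.96, SE 0.15), and was among the 3 genes with the largest rise in mean CPM. Tcf7, a factor of the same family, changed less, from 16.4 and 16 CPM in wild type to 73.3 and 65.9 CPM. Ascl2, a stem cell factor, had 58.9 and 65.1 CPM against 19.3 and 11 CPM, and Sp5, a repressor induced by Wnt, had 12.2 and 13.8 CPM against 4.5 and 2.71 CPM. Cyclin D1 (Ccnd1), a driver of G1, rose from 241 and 214 CPM to 583 and 644 CPM. Myc, the growth-promoting factor often named as the central target, was not called: its mutant libraries had 163 and 195 CPM and its wild type libraries 161 and 134 CPM (log2 fold change 0.28, adjusted p = 0.053 in edgeR's test). That call depended on the libraries and the scaling, as Myc passed without mutant replicate 4 (log2 0.41), without wild type replicate 4 (log2 0.41) and with library totals alone (log2 0.48). Cdx1, an intestinal homeobox factor, was the member that fell, from 55 and 53.1 CPM to 14.4 and 17.9 CPM.

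**Figure D3:**
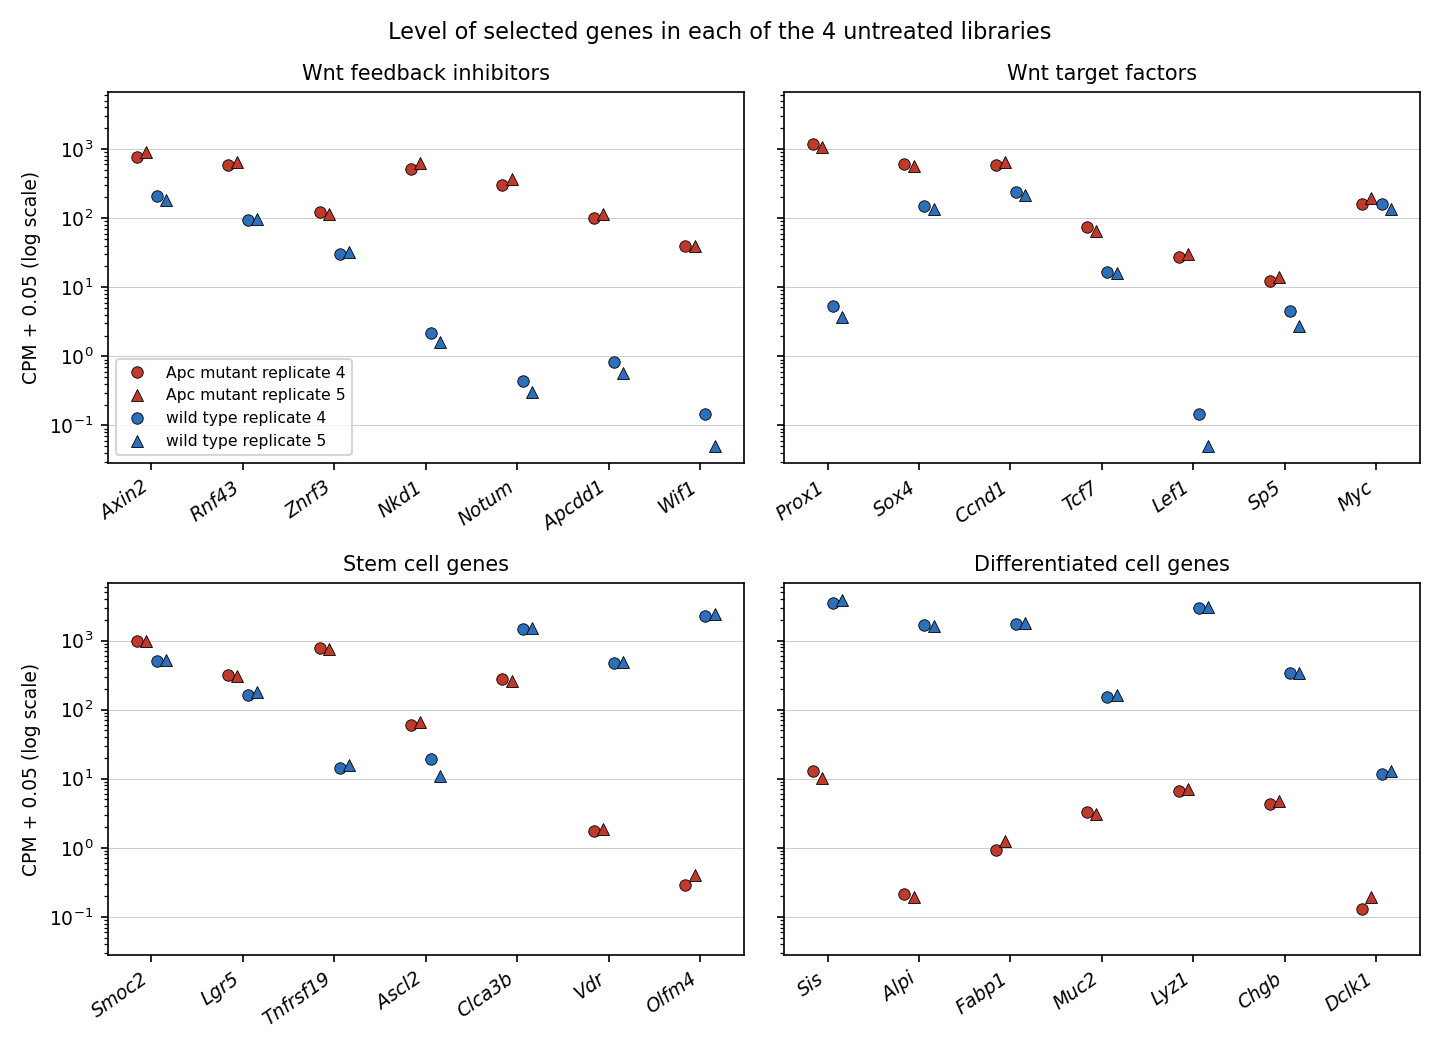
Level of 28 genes in each library, as CPM plus 0.05 on a log axis; red is Apc mutant and blue wild type, circles are replicate 4 and triangles replicate 5. Nkd1, Notum and Prox1 lie farther apart between genotypes than Axin2 and Ccnd1, and the Myc libraries lie close together; in the lower panels Olfm4, Alpi and Fabp1 are near 0 in both mutant libraries.

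Wnt ligands were a small and mostly silent family: of 24 listed with the R-spondins and the secretion factors, 9 could be tested, 5 of them only through the mutant libraries. Of the 9, 6 rose and 1 fell. Their median of 3.45 (3.22 with genes at 0 counts set to their bounds) was 7.15 without wild type replicate 4. In that fit the filter was run again, so the tested members could differ. Wnt6 had 79.8 and 89 CPM in the mutant and 0 and 0.129 CPM in wild type. Wnt7b had 47.3 and 49.6 CPM and 0 counts in both wild type libraries, which is at least 290.5-fold higher against 3 counts over the group. Wnt10a had 5.55 and 6.69 CPM, also against 0 counts. Thus 3 ligand genes were read in the mutant and were nearly unread in wild type. Wls, the carrier that takes Wnt proteins to the cell surface, rose from 70.2 and 78.9 CPM to 304 and 282 CPM. Wnt3, the ligand made by Paneth cells, went the other way, with 1.53 and 1.94 CPM against 11 and 10.1 CPM (log2 fold change -2.59, SE 0.23).

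Receptors were divided, with 11 of 18 tested members higher and 3 lower (20 listed, median 0.63). Ptk7, a Wnt co-receptor, had 118 and 155 CPM against 9.89 and 8.14 CPM, and Tspan12, a Frizzled partner, had 376 and 332 CPM against 117 and 135 CPM. Fzd7, a Frizzled of intestinal stem cells, rose by log2 0.55 (SE 0.10). Fzd5, the Frizzled linked to Paneth cell maturation, fell from 170.4 and 164 CPM to 14 and 12.3 CPM (log2 fold change -3.67, SE 0.11), the strongest fall among the receptors. Lgr4, an R-spondin receptor, differed by less than its spread, at 211 and 192 CPM against 197 and 215 CPM. Among 29 members of the destruction complex and nuclear Wnt factors, 17 of 26 tested rose and 2 fell (1 without wild type replicate 5), with a median of 0.36, close to what the choice of scaling moves. Of the 26, 5 with exons of 2406 to 4099 bases in all had a median of 0.003. The 8 of 4100 to 6483 bases and the 13 of at least 6484 bases had medians of 0.31 and 0.78. The part of exon length in this was not tested. Beta-catenin itself (Ctnnb1) had 1794 and 1763 CPM against 1369 and 1411 CPM. Axin1 had 93.3 and 94.3 CPM against 99 and 88 CPM and was not called. Tankyrase 2 (Tnks2), which marks Axin for breakdown, had 891 and 814 CPM against 296 and 347 CPM, and Btrc, which recognises beta-catenin for ubiquitination, 53.8 and 55.1 CPM against 19.1 and 19 CPM.

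Promoter sequence was set beside these levels for 3 Wnt targets and a pair of enterocyte genes. RefSeq windows (build GRCm38.p6) were matched by symbol to 10077 tested genes, and the 250 bases before each start were searched on both strands for CTTTGA (TCF and LEF), TTTATG (CDX), CAAAGT (HNF4), TGANTCA (AP-1) and GGAATG (TEAD). CTTTGA and CAAAGT share letters on opposite strands, so 1 stretch can match both. The windows are shown 5′ to 3′ on the gene's strand, with matches in capitals: Axin2 at chr11:108920099-108920348 (plus strand), Nkd1 at chr8:88527383-88527632 (plus strand) and Sp5 at chr2:70474673-70474922 (plus strand), all higher in the mutant, and Sis at chr3:72967864-72968113 (minus strand) and Alpi at chr1:87101607-87101856 (minus strand), both lower.
Axin2: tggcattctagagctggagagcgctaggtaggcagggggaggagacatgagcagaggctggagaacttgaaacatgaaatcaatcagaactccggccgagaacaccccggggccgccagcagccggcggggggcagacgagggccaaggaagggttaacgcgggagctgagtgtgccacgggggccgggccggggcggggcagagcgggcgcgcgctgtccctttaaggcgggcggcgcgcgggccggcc
Nkd1: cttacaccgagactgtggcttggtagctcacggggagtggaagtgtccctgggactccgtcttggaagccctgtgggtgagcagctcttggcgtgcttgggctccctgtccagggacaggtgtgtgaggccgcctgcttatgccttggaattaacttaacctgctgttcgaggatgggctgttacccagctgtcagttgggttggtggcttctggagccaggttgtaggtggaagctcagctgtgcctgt
Sp5: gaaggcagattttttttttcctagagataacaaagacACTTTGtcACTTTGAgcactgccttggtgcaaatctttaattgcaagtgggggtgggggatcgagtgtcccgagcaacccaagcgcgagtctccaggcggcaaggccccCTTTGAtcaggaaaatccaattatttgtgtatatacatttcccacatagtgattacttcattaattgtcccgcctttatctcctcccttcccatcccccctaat
Sis: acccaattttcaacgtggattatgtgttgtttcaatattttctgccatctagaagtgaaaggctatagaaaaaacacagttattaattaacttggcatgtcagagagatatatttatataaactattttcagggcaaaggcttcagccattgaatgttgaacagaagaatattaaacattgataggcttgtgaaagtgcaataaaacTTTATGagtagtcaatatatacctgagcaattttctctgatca
Alpi: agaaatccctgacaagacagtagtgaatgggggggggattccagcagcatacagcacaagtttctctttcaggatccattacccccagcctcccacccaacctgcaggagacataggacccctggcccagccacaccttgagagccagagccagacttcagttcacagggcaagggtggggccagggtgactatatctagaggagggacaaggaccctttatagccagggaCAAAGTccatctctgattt

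Sp5 held CTTTGA 204 and 104 bases before its start, the first of them inside a stretch that also matched CAAAGT on the other strand, and another such match lay 213 bases before the start. Axin2 and Nkd1 held none of the 5 motifs in these windows, in which 69.2% and 58.4% of bases were G or C. Sis held TTTATG 43 bases and Alpi CAAAGT 19 bases before the start. Over all 32851 RefSeq windows, CTTTGA was in 13.8%, TTTATG in 10.8%, CAAAGT in 12.6%, TGANTCA in 6.75% and GGAATG in 12.6%. CTTTGA was in 10.5% of 4527 windows of genes called higher, 11.5% of 4068 windows of genes called lower and 10.4% of 4271 windows of genes not called. For genes at least 8-fold lower, the shares were 16.8% for CTTTGA, 18.7% for CAAAGT and 11.4% for TTTATG of 667 windows, against 12.2%, 11.9% and 6.69% of 747 windows of genes at least 8-fold higher. Windows of the first kind held 52.8% G and C and those of the second 59.5%, and the part of this base composition in the shares was not tested. GGAATG was in 16.3% of windows of genes at least 8-fold higher and in 15.4% of those at least 8-fold lower. A match is a description of letters and not a bound site.

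Crypt base stem cell genes did not move together. All 21 listed genes could be tested, and 13 rose while 8 fell (median 0.57). Lgr5, the receptor that marks these cells, stood at 320.0 and 306 CPM in the mutant and 161 and 179 CPM in wild type, Smoc2, a secreted matrix protein of the same cells, at 970.0 and 972 CPM against 498 and 528 CPM. These rises were close to 2-fold. Tnfrsf19 (TROY), a Wnt-induced receptor, was far higher, at 779.9 and 759.7 CPM against 14 and 15.5 CPM (log2 fold change 5.71, SE 0.11). In the opposite direction, Olfm4, a secreted glycoprotein that marks the same crypt base cells in wild type tissue, had 0.241 and 0.36 CPM in the mutant and 2266 and 2452 CPM in wild type (log2 fold change -12.87). Vdr, the vitamin D receptor, fell from 480.1 and 484 CPM to 1.69 and 1.8 CPM, and Kcne3, a potassium channel subunit, from 144 and 166 CPM to 0.322 and 0.504 CPM. Aqp4, a water channel, and Clca3b, a chloride channel regulator, fell as well (log2 fold changes -3.12 and -2.48). In bulk RNA, fewer cells of a type and less RNA per cell cannot be told apart, here and in all that follows.

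Enterocyte genes fell, many of them to near 0. Among 29 brush border enzymes and structural genes, 21 of 28 tested were lower and 6 higher (median -2.14), and 9 of the 28 reached the filter only in wild type. Alkaline phosphatase (Alpi) stood at 0.161 and 0.144 CPM in the mutant and 1689 and 1637 CPM in wild type (log2 fold change -13.31). Sucrase-isomaltase (Sis), which splits dietary sugars, had 13 and 10.3 CPM against 3471 and 3821 CPM. Enpep, an aminopeptidase, had 0 counts in both mutant libraries and 114 and 117 CPM in wild type, at least 1009-fold lower. Villin (Vil1), an actin-bundling protein of microvilli, had 281 and 311 CPM against 783 and 806 CPM. Anpep, a neutral aminopeptidase, was an exception, rising from 161 and 172 CPM to 345 and 347 CPM (log2 fold change 1.06, SE 0.08).

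Absorption genes showed the same direction. Of 24 lipid absorption and apolipoprotein genes, 19 of 23 tested fell and 1 rose (Abca1, a cholesterol exporter, which was not called without mutant replicate 4), with a median of -3.25; 6 of the 23 reached the filter only in wild type. Apoa4, an apolipoprotein of chylomicrons, was at 0.0805 and 0 CPM in the mutant and 1160.4 and 905 CPM in wild type, that is, 1 count over both mutant libraries. Apoa1 had 0.161 and 0.072 CPM against 754 and 610.3 CPM and the fatty acid binding protein Fabp1 had 0.885 and 1.22 CPM against 1734 and 1784 CPM. Mttp, which loads lipid onto apolipoprotein B, kept a higher level, 21.5 and 21.5 CPM against 1279.7 and 1397 CPM. Of 28 sugar, peptide and ion carriers, 21 of 25 tested fell and 2 rose (1 without mutant replicate 5 or without either wild type library), with a median of -4.72; 11 of the 25 reached the filter only in wild type. The glucose carrier Slc5a1 (SGLT1) fell from 1013 and 1056 CPM to 33.6 and 35.3 CPM, and the peptide carrier Slc15a1 (PEPT1) had 0 counts in the mutant and 16.7 and 19.5 CPM in wild type. The phosphate carrier Slc34a2 rose, from 0.294 and 0.517 CPM to 7.65 and 6.26 CPM. Amino acid carriers were split, with 11 of 22 tested higher and 10 lower (23 listed, median 0.21, or 0.41 with library totals alone), and 7 of the 22 reached the filter only in wild type. The apical carriers Slc6a19 and Slc6a20a had 0 counts in the mutant and 81.2 and 83.2 CPM and 77.4 and 79.3 CPM in wild type. Slc7a5, a carrier of large neutral amino acids, rose from 98 and 96.6 CPM to 291 and 315 CPM, and Slc7a11, the cystine carrier, from 24.3 and 32.2 CPM to 106 and 93.7 CPM.

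Product genes of each secretory cell type fell more often than they rose. Of 17 goblet cell genes, 14 of 16 tested fell and 2 rose (median -3.79), and 3 of the 16 reached the filter only in wild type. Muc2, the main secreted mucin, stood at 3.3 and 3.02 CPM in the mutant and 155 and 162 CPM in wild type, and Zg16, a mucus lectin, at 0.241 and 0.216 CPM against 229.6 and 219 CPM. Tff3, a trefoil peptide, kept 82.5 and 87 CPM against 663 and 652 CPM. Spdef, a goblet cell transcription factor, fell from 25.6 and 18 CPM to 1.05 and 1.44 CPM, and Atoh1, which opens the secretory fate, from 14.5 and 17.1 CPM to 3.3 and 3.82 CPM. Bcas1 rose, from 13.3 and 11.9 CPM to 115 and 130.2 CPM.

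Paneth cell genes did not all go the same way. Of 21 genes, all tested, 16 fell and 5 rose (median -5.20, or -5.01 with genes at 0 counts set to their bounds). Of the 21, 8 reached the filter only in wild type. Lysozyme (Lyz1) had 6.6 and 7.05 CPM in the mutant and 2949.8 and 3089 CPM in wild type, the defensin gene Defa30 had 1.13 and 0.432 CPM against 525 and 573 CPM, and the lectin-like gene Mptx2 had 0 counts against 33.1 and 34 CPM. Defensin genes are near-identical copies, and their counts are uncertain as single genes because reads with several alignments were left out. Mmp7, the protease that activates defensins, rose instead, from 153 and 166 CPM to 643 and 610.1 CPM, and Pla2g2a, a secreted phospholipase, from 23.6 and 23 CPM to 305 and 301 CPM (log2 fold change 3.70, SE 0.10). The C57BL6 strain is known to carry a disrupted Pla2g2a allele, so its transcript level says nothing of active enzyme. Lysozyme and defensin genes thus went the opposite way from Mmp7 and Pla2g2a within 1 list.

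Enteroendocrine hormones and granins were close to absent from the mutant libraries, with a summed level of 6.04 and 6.69 CPM against 623 and 607 CPM. Of 24 listed genes 15 were tested and all were called lower, but 14 of these reached the filter only in wild type, so that count was largely set by the filter. Gip, an incretin, had 0 counts in both mutant libraries and 87.3 and 86.8 CPM in wild type, at least 764-fold lower. Cck, which controls bile release, had 0 counts against 27.2 and 22.6 CPM, and chromogranin B (Chgb) had 4.19 and 4.68 CPM against 334 and 341 CPM. Transcription factors of the lineage were mixed, with 7 of 16 tested lower and 5 higher (19 listed, median -0.63); without wild type replicate 4, 5 were lower and the median was -0.37. Of the 16, 4 reached the filter only in wild type. The summed level of the listed factors was higher in the mutant, at 881 and 816 CPM against 322 and 293 CPM. Most of it came from Sox4, a factor that other cells express too, at 616 and 564 CPM against 151 and 137 CPM. Neurog3, which starts the endocrine program, was at 12.6 and 14 CPM against 18 and 15.2 CPM and was not called (log2 fold change -0.33, adjusted p = 0.095 in edgeR's test). Neurod1, a factor acting after it, had 0.241 and 0.144 CPM against 5.68 and 4.26 CPM. Isl1, an islet and endocrine factor, rose from 1.66 and 1.68 CPM to 30.3 and 27.3 CPM. Of 20 tuft cell genes, 12 of 14 tested fell and 1 rose (median -2.27), and 7 of the 14 reached the filter only in wild type. Dclk1, the kinase used as a tuft cell marker, had 0.0805 and 0.144 CPM against 11.7 and 12.8 CPM, while Trpm5, a taste channel, fell less (log2 fold change -1.20). Ptgs1 (COX1), a prostaglandin enzyme, rose from 2.45 and 2.84 CPM to 60.5 and 60.1 CPM. With it, the summed level of the tuft list was 109 and 113 CPM in the mutant and 110 and 106 CPM in wild type, although most of its members fell.

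**Figure D4:**
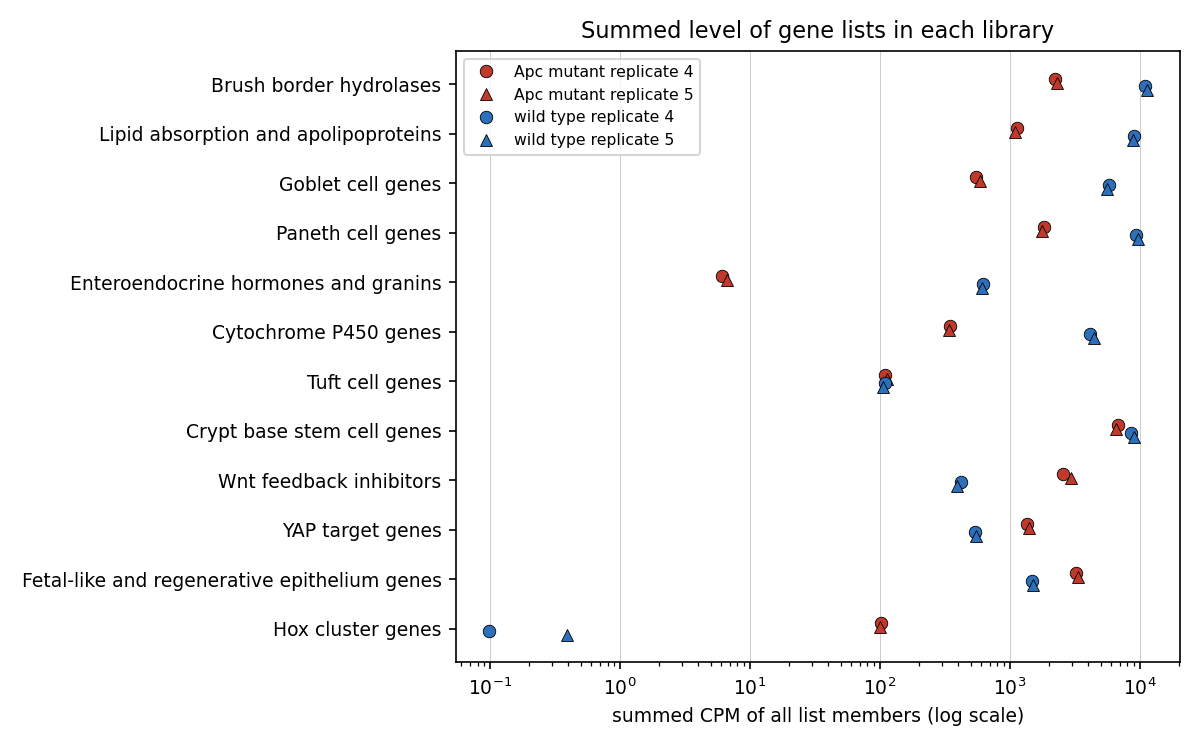
Summed CPM of all members of 12 lists in each library, on a log axis; red is Apc mutant and blue wild type, circles replicate 4 and triangles replicate 5. Hormone genes sum to 6.04 and 6.69 CPM in the mutant and 623 and 607 CPM in wild type, Hox genes to 101 and 100.3 CPM against 0.0979 and 0.388 CPM, and tuft cell genes to about the same level in all 4 libraries.

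Notch genes, which divide absorptive from secretory fate, were mixed. Of 29 listed, 23 were tested, 12 rose and 6 fell (median 0.42). The ligands parted: Jag1 had 92.3 and 91.7 CPM in the mutant against 29.5 and 23.5 CPM in wild type, whereas Dll1 had 26.5 and 29.3 CPM against 68.5 and 56.8 CPM and Dll4, the other ligand of secretory precursors, fell too (log2 fold change -2.10). Among receptors, Notch3 rose from 2.25 and 2.58 CPM to 21.7 and 27.8 CPM and Notch1 from 61.3 and 47.3 CPM to 92 and 120.3 CPM. Hes1, the classical target of the pathway, did not differ beyond its spread, at 83.5 and 86.2 CPM against 85.4 and 81 CPM (log2 fold change 0.03, SE 0.09).

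Fetal-like and regenerative epithelium genes, which mark immature or injured gut lining, were mostly higher. Of 21 listed, 20 were tested, 14 rose and 4 fell (median 1.58). Of the 20, 3 reached the filter only in the mutant and 2 only in wild type. The surface antigen gene Ly6a (SCA1) stood at 181 and 179 CPM in the mutant and 13.2 and 12.4 CPM in wild type. The alarmin Il33 had 233 and 212 CPM against 3.23 and 3.62 CPM. Clu, a secreted chaperone of regenerating crypts, rose by log2 1.55 (SE 0.09). Anxa10, an annexin, was the opposite, with 0.0805 and 0.144 CPM against 82.1 and 88.6 CPM. YAP target genes, which respond to cell shape and tension through TEAD factors, were also higher, with 17 of 22 tested up and 3 down (25 listed, median 2.47). Of the 22, 4 reached the filter only in the mutant. Ankrd1, a nuclear muscle and stress protein, had 13.8 and 12.9 CPM and 0 counts in wild type, at least 79.8-fold higher. Ccn2 (CTGF), a matrix protein, had 65.8 and 62.4 CPM against 0.881 and 0.646 CPM, and Ccn1 (CYR61) had 41.8 and 43 CPM against 4.8 and 5.81 CPM. Amotl1, an adaptor that binds YAP, rose from 4.11 and 5.68 CPM to 159 and 160.2 CPM.

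More matrix genes rose than fell. Of 38 integrin, laminin and collagen genes, 19 of 28 tested rose and 7 fell (median 1.45). Of the 28, 6 reached the filter only in the mutant and 2 only in wild type. By exon length, 23 were in the longest class of tested genes (from 6484 bases), with a median of 1.52. That whole class had a median of 0.14. The 2 and 3 genes in the next shorter classes (2406 to 4099 and 4100 to 6483 bases) had medians of -0.35 and 0.24. The part of length in this was not tested. The basement membrane collagens Col4a1 and Col4a2 had 97.8 and 117 CPM and 72.3 and 80.6 CPM in the mutant, against 0.783 and 0.517 CPM and 1.08 and 1.03 CPM in wild type. Fibronectin (Fn1) had 128 and 134 CPM against 0 and 0.388 CPM. Laminin alpha 5 (Lama5) was read in both genotypes, at 451 and 605 CPM against 44.7 and 34.8 CPM. Vimentin (Vim), an intermediate filament of mesenchymal cells, had 314 and 335 CPM against 6.75 and 5.55 CPM, yet it was the only 1 of 14 fibroblast and muscle markers that could be tested. Of the other 13, 5 (Col1a2, Col3a1, Dcn, Lum and Thy1) had no counts and 8, among them Col1a1, Pdgfra and Acta2, were below the filter on low counts. The summed level of that list, 316 and 339 CPM against 7.73 and 6.72 CPM, was therefore nearly all vimentin. In fits with a library left out the filter was run again, so other markers of this list could enter the test.

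Junction and keratin genes changed in both directions. Of 29 claudin, cadherin and tight junction genes, 9 of 23 tested rose and 9 fell (median -0.13, 0.06 with library totals alone and 0.05 without wild type replicate 4). These counts were near the shares over all tested genes, 32.8% higher and 31.5% lower, so nothing is read from them about the family. Cldn4 had 238 and 280.5 CPM against 41.8 and 36.2 CPM, whereas the pore-forming Cldn2 and Cldn15 had 8.37 and 7.13 CPM and 24.6 and 24.9 CPM in the mutant against 562 and 630.2 CPM and 415 and 422 CPM in wild type. E-cadherin (Cdh1) was not called, at 1001 and 1027 CPM against 1092 and 1131 CPM. Of 12 tested keratin genes, 7 rose and 4 fell (49 listed, median 0.89, or 0.54 without mutant replicate 5). Of the 12, 2 reached the filter only in the mutant and 2 only in wild type. Krt20, a keratin of villus cells, had 0 counts in the mutant and 78.6 and 86.2 CPM in wild type; Krt4, a keratin of stratified epithelium, had 145 and 159 CPM against 4.21 and 4.13 CPM. Among 31 proteases and inhibitors, 12 of 26 tested rose and 5 fell, and 5 of the 26 reached the filter only in the mutant. Their median was 0.21, or 0.08 without mutant replicate 5 and 0.32 without wild type replicate 4. Timp2, a metalloprotease inhibitor, was at 328 and 329 CPM against 4.7 and 4 CPM.

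Factors that set identity along the gut differed strongly. Of 49 regional and lineage transcription factors, 23 of 38 tested fell and 14 rose (median -0.64, or -0.41 without wild type replicate 4). Of the 38, 5 reached the filter only in the mutant and 3 only in wild type. Pdx1, a factor of duodenum and pancreas, had 0 counts in both mutant libraries and 52.1 and 42.6 CPM in wild type, at least 421-fold lower. Onecut2, also a factor of proximal gut, fell from 304 and 321 CPM to 0.724 and 0.792 CPM. Hnf4g and Hnf4a, factors of enterocyte genes, fell from 196 and 216 CPM to 22.1 and 20.9 CPM and from 1149 and 1154 CPM to 454 and 490.3 CPM. Cdx2, the factor of intestinal identity, was not called, at 182 and 192 CPM against 172 and 156 CPM, and passed under other scalings (log2 0.39 with library totals alone). Osr2 and Irx5, developmental factors, were read in the mutant at 21.3 and 27.4 CPM and 19.3 and 17 CPM, against 0.392 and 0.646 CPM and 0.294 and 0 CPM in wild type. Among 39 Hox genes, 5 could be tested, all of the HoxA cluster. Each of the 5 reached the filter only in the mutant libraries, so that all were called higher was fixed by the filter. Hoxa9 had 52.3 and 49.4 CPM, Hoxa7 19.9 and 19.7 CPM and Hoxa10 23.7 and 25.1 CPM in the mutant, against 1 count in all for the 3 genes in wild type. The other clusters had few or no counts in either genotype. Of 27 genes of stomach, pancreas or colon epithelium, 4 of 12 tested rose and 8 fell (2 reached the filter only in the mutant and 6 only in wild type), and Muc6, a gland mucin of stomach and duodenum, had 38.9 and 42.5 CPM against 0 counts. The region of gut from which each line was grown is not in the labels, so it cannot be told apart from genotype for these genes.

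Other signalling families showed partial shifts or none. Of 39 BMP and TGF-beta genes, 18 of 28 tested rose and 2 fell (median 0.88), and 4 of the 28 reached the filter only in the mutant. The target gene Id1 had 36.1 and 38.9 CPM against 16.4 and 9.95 CPM and Id3 had 46.4 and 70.5 CPM against 7.34 and 4.52 CPM, although the inhibitor Noggin was in the medium of both groups. Bmp7, a ligand, rose from 34.6 and 32.6 CPM to 143 and 161 CPM, while Bmp3, an antagonist-like ligand, fell from 83.4 and 82 CPM to 8.94 and 9.21 CPM. The TGF-beta receptor gene Tgfbr2 had 451 and 452 CPM against 126 and 142 CPM. Of 22 Eph receptors and ephrins, which position cells along the crypt, 9 of 16 tested rose and 5 fell (median 0.52). Of the 16, 3 reached the filter only in the mutant and 1 only in wild type. Ephb3 rose by log2 0.70 (SE 0.12) and its ligand gene Efnb1 fell (log2 fold change -1.77, SE 0.20). Epha4 rose from 7.15 and 8.53 CPM to 42.2 and 38.7 CPM. In the EGF family, 8 of 21 tested genes rose and 9 fell (27 listed, median -0.03, which was above 0 without mutant replicate 4). Over all tested genes 32.8% were higher and 31.5% lower, so nothing is read from these counts about the EGF family. Egfr was not called, at 62.9 and 63.4 CPM against 60.2 and 69.2 CPM. Nrg4, a ligand of ErbB4, had 0 counts in the mutant and 5.29 and 5.04 CPM in wild type.

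Proliferation genes hardly differed as a group. All 36 listed genes of G1/S and DNA replication were tested, and 6 rose and 11 fell, with a median of 0.05 that turned below 0 without wild type replicate 4. Those counts depended on libraries and scaling: 3 rose without mutant replicate 5 and 2 without wild type replicate 5, 7 fell without mutant replicate 4, and with library totals alone 15 rose and 5 fell. Pcna, the sliding clamp of replication, had 148 and 158 CPM in the mutant and 213 and 209 CPM in wild type, while E2f1, a driver of S phase, rose from 24.3 and 21.1 CPM to 43.3 and 50.1 CPM and E2f2 fell from 64.2 and 62.3 CPM to 9.58 and 8.57 CPM. Of 30 G2/M genes, 2 rose and 10 fell (median -0.14, or 0.06 with library totals alone), and neither of those that rose was called without mutant replicate 4 or either wild type library. Mki67, a marker of cycling cells, had 461 and 434 CPM against 562 and 618 CPM and was called lower, though not with library totals alone, and Top2a, a topoisomerase of mitosis, had 695 and 633 CPM against 688 and 773 CPM and was not called.

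Cell cycle inhibitors and p53 targets were higher more often than lower, with 21 of 32 up and 6 down (median 0.80). Cdkn1a (p21) had 259.9 and 281 CPM in the mutant and 145 and 128 CPM in wild type, and Mdm2, the ubiquitin ligase for p53, had 161 and 146 CPM against 63.4 and 67.7 CPM. Trp53inp1, a stress-induced cofactor of p53, had 343 and 289 CPM against 53.9 and 57.1 CPM. Cdkn2a, which encodes p16 and ARF, was low, at 3.62 and 7.41 CPM against 0.196 and 0.129 CPM, the mutant replicates differing from each other.

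Metabolic genes were mostly lower. Of 73 nuclear-encoded oxidative phosphorylation genes, all tested, 70 fell and the other 3 were not called, with a median of -0.95. Sdha, a subunit of complex II, had 387 and 387 CPM against 800.2 and 839 CPM, Atp5a1, a subunit of ATP synthase, had 1065 and 1121 CPM against 2225 and 2226 CPM, and Cox4i1, of complex IV, had 326 and 389 CPM against 588 and 559 CPM. Genes with short exons were lower in general: the median log2 fold change was -0.25 in the 3469 tested genes with the shortest exons (65 to 2405 bases in all) and 0.14 in the 3465 with the longest (from 6484 bases). Of the 73 genes, 52 were in that class of short genes, with a median of -0.93. The 11 and 9 genes in the next longer classes (2406 to 4099 and 4100 to 6483 bases) had medians of -0.95 and -1.08. Only 1 gene was in the longest class, at -0.86. The part of length in these medians, and in those of lists given without length classes, was not tested. Some genes also varied within a group, as did Uqcrq, a subunit of complex III, with 28 and 49.4 CPM against 203 and 99.9 CPM. Protein genes of the mitochondrial genome fell in 7 of 13, and the others were not called (median -0.45). The most abundant of them, mt-Co1, was not called, with 16799 and 15619 CPM against 14369 and 15878 CPM, and passed as higher with library totals alone (log2 0.30). On the other strand of that genome, mt-Nd6 fell from 116 and 119 CPM to 10.5 and 10.7 CPM; whether counting used the strand is not given in the sources used here, and reads from opposite strands might not be told apart.

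Ribosome biogenesis genes were lower more often than higher. Of 35 ribosome biogenesis genes, 26 fell and 1 rose (median -0.39), but 14 fell and 5 rose with library totals alone. Nucleolin (Ncl) had 849 and 821 CPM against 1462 and 1599 CPM and Dkc1, which modifies ribosomal RNA, had 82.2 and 73.7 CPM against 167 and 181 CPM. Cytoplasmic ribosomal protein genes fell in 26 of 77 tested and rose in 3 (80 listed, median -0.15). That count was 6 without mutant replicate 4, 12 without wild type replicate 4 and 7 with library totals alone, where 11 rose, so no direction is read from it.

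Sugar and lipid metabolism changed in named branches. Of 37 glycolysis and hypoxia genes, 21 of 36 tested fell and 7 rose (4 without mutant replicate 5), with a median of -0.44. Medians by exon length class, from shortest to longest, were -1.88, -0.70, -0.41 and -0.03 for 8, 11, 11 and 6 of these genes. The part of length in them was not tested. G6pc, which releases glucose, had 0 counts in the mutant and 28.7 and 28.9 CPM in wild type. Ldha, lactate dehydrogenase, fell from 2493 and 2495 CPM to 1064 and 1134 CPM, and Hk2, a hexokinase, was not called, at 88.5 and 91.1 CPM against 91.1 and 91.3 CPM. Vegfa, a growth factor for blood vessels, rose from 152 and 138 CPM to 234 and 255 CPM. Of 34 sterol and fatty acid synthesis genes, 28 fell and 1 rose (Me1, malic enzyme, which was not called without mutant replicate 4 or wild type replicate 4), with a median of -0.91. Hmgcs1, an early enzyme of the sterol pathway, had 424 and 397 CPM against 1005 and 1065 CPM and Insig1, a sterol-sensing regulator of the pathway, had 107 and 108 CPM against 493 and 519.6 CPM. Of 27 genes of fatty acid oxidation and ketone synthesis, 19 of 26 tested fell and 4 rose (median -0.96). Ehhadh, a peroxisomal enzyme, had 4.75 and 4.32 CPM against 163 and 167 CPM.

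Stress and detoxification genes parted. ATF4 target and serine synthesis genes rose in 19 of 27 and fell in 6 (median 0.59): Psat1, of serine synthesis, had 867 and 822 CPM against 238 and 269 CPM, Asns, asparagine synthetase, had 608 and 574 CPM against 241 and 262 CPM, and Pycr1, of proline synthesis, had 113 and 121 CPM against 16.2 and 16.9 CPM. Atf4 transcript itself was not called, at 404 and 425 CPM against 378 and 369 CPM, though it passed with library totals alone (log2 0.35). Glutathione and NRF2 genes fell in 22 of 28 tested and rose in 1 (29 listed, median -0.75). From the shortest to the longest exon class, medians were -1.44, -0.54, -0.68 and 0.19 for 14, 8, 5 and 1 of them. The part of length in these medians was not tested. Nqo1, a quinone reductase, was at 15.1 and 14.6 CPM against 81.1 and 88.9 CPM. Gsta1, a glutathione transferase, was at 1.69 and 1.94 CPM against 215 and 223 CPM. Of 76 cytochrome P450 genes, 27 of 33 tested fell and 4 rose (median -4.14), and 17 of the 33 reached the filter only in wild type. Cyp2c29 had 0 counts in both mutant libraries and 327 and 359.9 CPM in wild type, at least 2994-fold lower. Cyp3a11 had 2.01 and 1.8 CPM against 306 and 346 CPM. P450 genes also come in close copies, for which single-gene counts are uncertain. Cyp4b1 was among those that rose, from 28.6 and 28.7 CPM to 78.5 and 79.5 CPM.

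Immune-related genes of the epithelium had no common direction. Of 34 interferon-stimulated genes, 12 of 24 tested rose and 7 fell (median 0.46). Of the 24, 4 reached the filter only in the mutant and 3 only in wild type. Ifitm1, a membrane protein that limits virus entry, had 412 and 517 CPM in the mutant and 1 count in wild type, and its neighbour in function Ifitm3 had 799.7 and 909 CPM against 102 and 110.5 CPM. Ifih1, an RNA sensor, fell from 33.7 and 30 CPM to 8.21 and 9 CPM. Among 36 NF-kB, cytokine and chemokine genes, 6 of 19 tested rose and 9 fell (median -0.28). With shares of 32.8% higher and 31.5% lower over all tested genes, no direction is read from these counts. The chemokine genes Ccl25 and Ccl28 had 13.4 and 14 CPM and 2.41 and 2.52 CPM in the mutant, against 302 and 318 CPM and 106 and 119 CPM in wild type. Of 25 MHC and antigen processing genes, 9 of 17 tested fell and 4 rose. The median was -0.86, or -0.33 without wild type replicate 5, a fit in which the filter was run again. B2m, the MHC class I light chain, was at 143 and 133 CPM against 334 and 342 CPM. Of the 17 tested MHC and antigen processing genes, 1 reached the filter only in the mutant and 3 only in wild type. Pigr, which carries antibodies across the epithelium, fell from 3603 and 3774 CPM to 7.89 and 7.05 CPM. Nox1, a superoxide-producing oxidase of the gut, had 0.402 and 0.504 CPM against 20.9 and 22.7 CPM, and 6 of 7 tested genes of nitric oxide, superoxide and arginine enzymes fell, 3 of which reached the filter only in wild type.

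Among immediate early genes, Jun rose from 27.1 and 16.5 CPM to 92.2 and 111 CPM and Fos fell from 19.3 and 15.9 CPM to 2.41 and 2.52 CPM. Of 18 tested members 7 were higher and 5 lower, and the number lower depended on the libraries. Both counts were near the shares over all tested genes, 32.8% and 31.5%. Of 19 imprinted growth genes, 6 of 9 tested rose and 2 fell (1 without mutant replicate 4 or wild type replicate 4). H19, a maternally expressed RNA, had 7.57 and 9.93 CPM against 0 and 0.129 CPM, and Igf2r, the receptor that clears IGF2, had 741 and 752 CPM against 168 and 177 CPM.

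Genes outside all lists included some of the largest differences. Slc30a2, a zinc exporter, had 1172 and 1243 CPM in the mutant and 1.37 and 1.03 CPM in wild type (log2 fold change 9.93). Ptprt, a receptor tyrosine phosphatase, had 429 and 402 CPM against 0.392 and 0.258 CPM. Cdh13, a cadherin anchored to the membrane by lipid, had 90.9 and 90.6 CPM and 0 counts in wild type, at least 543-fold higher. Entpd3, a nucleotide-splitting enzyme of the cell surface, had 205 and 214 CPM against 0.783 and 0.775 CPM, and Enah, an actin regulator, had 198 and 184 CPM against 0.587 and 1.03 CPM. These genes were close to silent in wild type. In the other direction, Dmbt1, a secreted scavenger receptor of the mucosa, had 0.161 and 0.216 CPM in the mutant and 3399 and 3433 CPM in wild type (log2 fold change -14.05). Cps1, which fixes ammonia in the urea cycle, had 0.402 and 0.36 CPM against 2878 and 3165 CPM, and Reg1, a secreted lectin, had 0.241 and 0.288 CPM against 2234 and 2436 CPM. Pycard (ASC), the adaptor of inflammasomes, had 0 counts in both mutant libraries and 204 and 209 CPM in wild type, at least 1808-fold lower. Prlr, the prolactin receptor, also had 0 counts, against 94.6 and 107 CPM. In total 143 tested genes had 0 counts in both wild type libraries and 161 had 0 counts in both mutant libraries.

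Markers of other cells and reference genes were checked beside these values. Of 15 immune cell markers 3 could be tested, and Cd3e, Cd8a and Adgre1 had no counts; the list summed to 7.73 and 10.01 CPM in the mutant and 8.12 and 8.40 CPM in wild type. Endothelial and neural markers summed to 10.1 and 10.7 CPM against 6.85 and 5.94 CPM, with 4 of 14 tested. Of 14 epithelial identity genes, all tested, 7 fell and 2 rose (median -0.43, or -0.24 with library totals alone). Among them Epcam, a surface protein of all gut epithelium, had 492 and 500.1 CPM against 1234 and 1194 CPM. Of 27 reference genes often used for scaling, 15 fell and 3 rose (median -0.34). Beta-actin (Actb) was not called, at 1048 and 1180.4 CPM against 1212 and 1088 CPM, and Tbp was not called at 41 and 35.2 CPM against 39.6 and 43.3 CPM. Gapdh had only 16.3 and 18.8 CPM and 30.4 and 27 CPM; reads with several alignments, 36.5% to 38.9% of all reads in each library, were not counted, and Gapdh has many processed pseudogenes. Xist, the RNA of the inactive X chromosome, was read in all 4 libraries, at 4308 and 3857 CPM against 2323 and 2607 CPM.

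Chromosome 19 stood apart from the rest of the genome. Its 496 tested genes had a median log2 fold change of 0.54 (a median fold of 1.45), while the medians of the other chromosomes lay between -0.16 and 0.09. Of these genes 59.1% were called higher and 17.5% lower, and 72.0% had a fold change above 0, against 49.4% of 13339 genes on the other chromosomes. The median of chromosome 19 was 0.52 among genes with a mean of at least 10 CPM. Along the chromosome the medians were 0.65, 0.37, 0.33, 0.14, 0.58, 0.48 and 0.36 in successive windows of 10 Mb that held 191, 52, 46, 56, 103, 39 and 9 tested genes. The 4th window, at 0.14, was within what the choice of scaling moves. The gene lists and named genes above were not split by chromosome. The part of this shift in members that lie on chromosome 19 was therefore not tested. No label gives a karyotype, and DNA copy number was not analysed here.

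**Figure D5:**
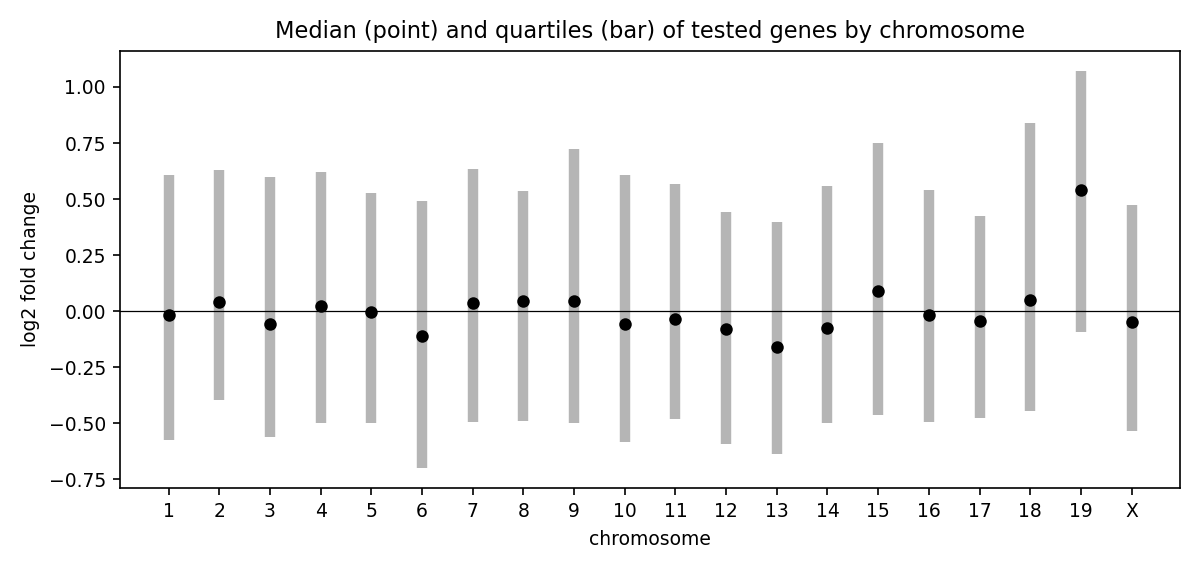
Median (point) and quartiles (grey bar) of the log2 fold change of tested genes on each chromosome, mutant over wild type. Chromosome 19 has a median of 0.54, and the medians of all other chromosomes shown lie between -0.16 and 0.09.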

How the data were processed

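RNA libraries of untreated organoids were compared, replicates 4 and 5 of each genotype. The authors deposited 1 file of raw read counts per gene for each library. HTSeq 0.6.1p1, HISAT2 2.1.0, Trimmomatic 0.36 and build GRCm38 are named in the submitters' processing notes, while the strand setting of counting is not given in the sources used here. Summary lines (no feature, not aligned, several alignments) were removed; reads outside genes made up 4.78% to 7.32% of the total and reads with several alignments 36.5% to 38.9%. Ensembl IDs were named from GENCODE M21 (45229 of 46078 matched).

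Genes were filtered with filterByExpr, scaled by TMM and tested with edgeR 4.0.16 (quasi-likelihood, R 4.3.3) on these 4 libraries without covariates, with Benjamini-Hochberg adjustment over 13908 genes and a threshold of 0.05. SE is the log2 fold change divided by the square root of F. For genes with only a few counts in 1 group this SE falls below counting error, so none is given there. A fold against 0 counts uses a floor of 3 counts over the group and is a lower bound. Total counts were 8325979 to 13027701 per library, and intervals cover counting error only. On counts simulated for this comparison over 13908 genes, with 50 genes changed at each fold, the test recovered 39 at 1.5-fold and 50 at each of 2-, 4- and 8-fold, with 11 false calls. Changed genes were drawn from the better expressed ones, with 1.5- and 4-fold only upward and 2- and 8-fold only downward. Far fewer genes changed there than in the data, and their spread followed the trend alone. Those numbers are therefore not the error rates of this comparison. Replicate numbers are shared, but same-numbered libraries did not deviate together (correlation -0.30 over genes). With 2 libraries per group this check cannot exclude a pairing, and the main fit used none.

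The comparison and its 53 gene lists (1546 memberships matched) were chosen with earlier results of these data known. Genes named are the key genes written with each list, the members with the largest called changes, and the genes with the largest fold and level changes overall; other list members were named as examples after their values were seen. Promoter windows are from RefSeq. DESeq2 1.42.0, other scalings, filters, a replicate block and leaving out each library were tried as alternatives. Some items withheld for evaluation are not reported here.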

Additional observations from a re-analysis of the deposited data

How the results depend on the processing

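The counts of genes called over the whole table kept within 1.5 times of their values under every alternative run. In all, 8940 genes were called, against 7330 with DESeq2 (3610 higher, 3720 lower), 8931 with its size factors, 8887 with upper quartile scaling, 9023 with library totals alone, 9895 with no filter on low counts, 8856 with a filter at 1 CPM and 10319 with all 16 libraries in the fit. Between 7328 and 8938 of the genes were called in the same direction under each alternative. Leaving out each library in turn gave 7680 to 8183 calls, with the lone library assumed to vary like the other group. Each fit with a library left out ran the filter on low counts again, with a smallest group of 1 library. Its tested genes, and so the tested members behind its list medians and counts, could differ from those of the main fit. A fit with the replicate block called 7940 genes, 4038 higher and 3902 lower, and 4214 of at least 2-fold. Pairing the numbers crosswise, chosen after seeing the data, called 10624.

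The median of chromosome 19 was 0.73 with library totals alone, which lift the median of all genes by 0.20, and 0.49 to 0.57 with 1 library left out. Of the comparisons of named genes with their alternatives, 4159 kept their call, 44 were no longer called and 18 became called. Among genes called in either fit, 0 reversed direction. A change of sign in a gene called in neither fit was not counted. The medians of 8 lists changed sign in 17 of 636 comparisons, among them the immune markers, with few counts, at 1.43 without the filter against -3.58. The cause of these changes was not tested. Depth limits the genes with few counts: a group at 0 counts gives only a lower bound of the fold.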
